A study of Rattus norvegicus with 12 samples.

Results

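The genes described here are 8 ligands of the TGF-beta family and follistatin, chosen by symbol from a list of 9. They are Tgfb1, Tgfb2 and Tgfb3, which encode the TGF-beta isoforms, Inhba, which encodes the subunit of activin A, the growth differentiation factor genes Gdf6 and Gdf15, the bone morphogenetic protein genes Bmp2 and Bmp4, and Fst. Fst is not a ligand gene: follistatin is a secreted protein that binds activins. All 9 were present among 17312 gene symbols, and all 9 were among the 10518 that reached 1 FPKM (fragments per kilobase of transcript, scaled to library size) in at least 3 libraries and were tested.

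The cells were cardiomyocytes of Wistar rats, described by the series as coming from the ventricles of newborn animals, and their RNA was sequenced after selection of polyadenylated transcripts. The 12 libraries formed 4 groups of 3, called here stretched Wnt5a siRNA, unstretched Wnt5a siRNA, stretched control and unstretched control. All cells received an siRNA, either against Wnt5a, a secreted Wnt ligand, or a control siRNA, and cells of each kind were stretched or left without stretch. The sources used here give neither the siRNA sequences nor the form and length of the stretch. Whether replicate numbers stand for separate cultures is not said either. The p-values then refer only to the spread among the libraries, part of which may be technical.

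Ligands of this family are secreted dimers cut from larger precursors by convertases such as furin. TGF-betas leave the cell in a latent complex with binding proteins of the matrix, from which integrins, thrombospondin and proteases can release them. TGF-betas and activins signal through paired receptor kinases to Smad2 and Smad3, and BMPs and GDF6 to Smad1 and Smad5. Follistatin holds activins away from their receptors. In the heart, TGF-betas are known for driving fibroblasts to make matrix, BMP2 and BMP4 for their part in cardiac development, and GDF15 as a secreted protein raised in stressed tissue.

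Levels are FPKM, which are per transcript length and can be set side by side between genes. Changes are differences of log2(FPKM + 1) ± SE, which understate the change of low genes, with 95% intervals and adjusted p-values from limma (Benjamini-Hochberg over the 10518 genes, threshold 0.05). Summed FPKM ran from 575161 to 709021 over the libraries, and the number of reads is unknown. Under stretch the siRNA's target, Wnt5a, had 6.22, 5.88 and 5.56 FPKM in the stretched Wnt5a siRNA libraries and 6.52, 5.66 and 8.22 FPKM in the stretched control libraries, a difference that did not pass (adjusted p = 0.387). Without stretch it was lower in the Wnt5a siRNA libraries, at 6.15, 4.60 and 6.81 FPKM, against 12.3, 10.4 and 11.6 FPKM in the unstretched control (adjusted p = 0.0014). In control siRNA cells Wnt5a fell with stretch to 59.5% of the unstretched mean (−0.68 ± 0.14, adjusted p = 0.0014). Its change with stretch in Wnt5a siRNA cells was 0.02 ± 0.14 (adjusted p = 0.948). The difference of these changes, 0.70 ± 0.20, passed (adjusted p = 0.024). The transcript therefore gives no check of the siRNA labels under stretch.

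Library 3 of the stretched control stood apart: it had the lowest value of its group in 8 of the 9 genes and the highest in Tgfb1. Bmp2, Gdf15 and Fst were there at 51.0%, 53.9% and 55.8% of the mean of the other stretched control libraries, while Inhba was at 97.5%. The 9 cardiomyocyte markers listed in the files were all detected in every library, with summed levels between 17725 and 24757 FPKM under stretch and between 18193 and 21179.9 FPKM without it in Wnt5a siRNA libraries, and between 25139.6 and 37211 FPKM under stretch and between 25793 and 28866 FPKM without it in control libraries. Actc1, cardiac actin, averaged 10131 FPKM and made up much of these sums, while single markers went their own ways. With stretch in control siRNA cells 5 of the 9 fell and 2 rose (median −0.84), among the falls Ryr2 (−0.99 ± 0.13, adjusted p = 6.0e-05), Pln (−1.08 ± 0.17, adjusted p = 1.7e-04) and Myh6 (−1.31 ± 0.28, adjusted p = 0.0017), whereas Actc1 rose (adjusted p = 0.0024). With stretch in Wnt5a siRNA cells 2 of the 9 fell, and with Wnt5a siRNA 4 of the 9 fell without stretch. The shares of all tested genes called were 54.3% for stretch with control siRNA, 16.0% for stretch with Wnt5a siRNA and 28.5% for Wnt5a siRNA without stretch. Of 11 fibroblast markers 10 were detected in every library. The eleventh, Col1a2, was listed at 0 in all 12, which can be a failed estimate, since Col1a1 averaged 2409.5 FPKM. Their sum was 8787 to 9407 FPKM in the stretched Wnt5a siRNA libraries, 5215 to 5501 in the unstretched Wnt5a siRNA libraries, 4804, 4847 and 8315 in the stretched control libraries and 3467 to 3972 in the unstretched control libraries. The 12 macrophage and leukocyte markers, all detected, summed to between 306 and 353 FPKM under stretch and between 126 and 134 FPKM without it in Wnt5a siRNA libraries. In control libraries the sums lay between 269 and 448 FPKM under stretch, with library 3 the highest, and between 143 and 183 FPKM without it. The 10 smooth muscle and pericyte markers summed to 3766, 3793 and 3289 FPKM in the stretched Wnt5a siRNA libraries, below the 7123, 6093 and 4223 FPKM of the stretched control libraries. They lay between 4413 and 6492 FPKM in the unstretched Wnt5a siRNA and between 4631 and 5727 FPKM in the unstretched control libraries. The 10 endothelial markers, 9 of them tested, summed to between 54.7 and 89.1 FPKM in the stretched Wnt5a siRNA, 31.1 and 43.0 FPKM in the unstretched Wnt5a siRNA, 43.1 and 52.4 FPKM in the stretched control and 41.5 and 51.5 FPKM in the unstretched control. Of the 9 tested, 5 rose with stretch in Wnt5a siRNA cells, where 16.0% of all tested genes were called. With control siRNA 1 rose and 1 fell with stretch, beside 54.3%. In such bulk RNA the cells that made each transcript are not known, and fewer cells of a type and less RNA per cell cannot be told apart. The part of these shifts in the results below was not tested.

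Under stretch with control siRNA most of the ligand genes were higher. Of the 9 genes 6 rose (Tgfb1, Tgfb2, Inhba, Gdf6, Gdf15 and Bmp4) and Tgfb3 fell, where 54.3% of all tested genes passed, 27.5% as rises and 26.8% as falls. The median log2 change was 0.98 over the 9 genes and 0.01 over all tested genes. For 7 of the 9 the stretched and unstretched libraries did not overlap, against 58.0% of all tested genes. Under stretch with Wnt5a siRNA the 9 genes had a median of 0.16, and only Tgfb3 passed limma's test, as a fall, where 16.0% of tested genes passed, 8.44% as rises and 7.59% as falls. The libraries did not overlap for 5 of the 9, against 40.7% of tested genes. At an unadjusted p under 0.05, Gdf6 and Gdf15 were also higher there. Setting all libraries to the same sum (TPM scaling) left these counts at 6 and 1 with control siRNA and 0 and 1 with Wnt5a siRNA, although it turned the counts over all genes with control siRNA, 2889 higher and 2822 lower, into 1455 higher and 4502 lower, and those with Wnt5a siRNA, 888 higher and 798 lower, into 497 higher and 1759 lower. Without library 3 of the stretched control all 9 genes were called under stretch with control siRNA, with Bmp2 and Fst added as rises. Over the libraries left out, 4830 to 6035 of the 10518 tested genes were called in this comparison.

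**Figure D1:**
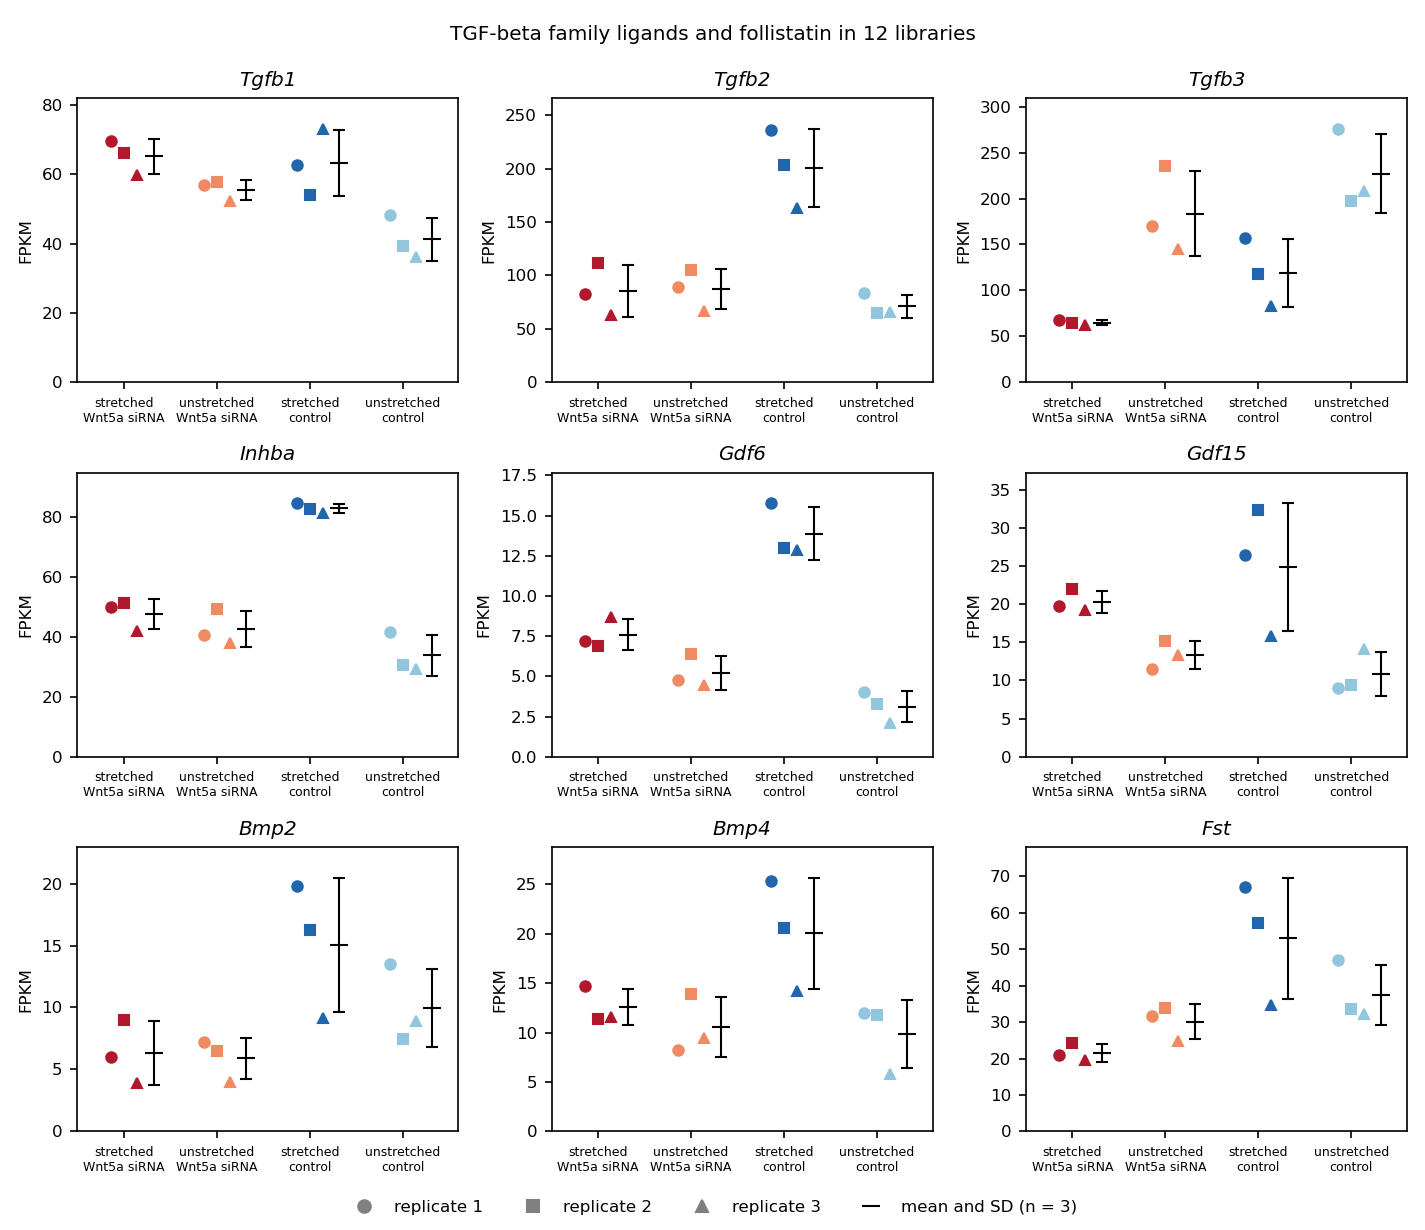
FPKM (linear axes from 0) of the 9 genes in each of the 12 libraries, with circles, squares and triangles for replicates 1, 2 and 3 and the mean with its SD beside them (n = 3). Tgfb2, Inhba and Gdf6 are above all other libraries in the 3 stretched control libraries, while Tgfb3 is lowest in the stretched Wnt5a siRNA libraries.

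The TGF-beta isoforms moved in different directions. Tgfb2, whose product needs the co-receptor betaglycan for strong receptor binding, was at 82.4, 111 and 62.7 FPKM in the stretched Wnt5a siRNA libraries and 89.4, 105 and 67.2 FPKM in the unstretched Wnt5a siRNA libraries. Control libraries had Tgfb2 at 236, 204 and 163 FPKM with stretch and 83.8, 64.5 and 65.4 FPKM without it. The stretched control libraries lay above all the others, and the other 3 groups overlapped. With control siRNA Tgfb2 was thus 2.82-fold higher under stretch (log2 change 1.48 ± 0.21, interval 1.03 to 1.93, adjusted p = 9.3e-05). With Wnt5a siRNA its change under stretch was −0.04 ± 0.21 (interval −0.50 to 0.41, adjusted p = 0.921).

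Tgfb3 was the most abundant of the 9 genes in both unstretched groups. It was at 67.6, 64.5 and 62.8 FPKM in the stretched Wnt5a siRNA libraries and 170.4, 235 and 145 FPKM in the unstretched Wnt5a siRNA libraries. Control libraries had Tgfb3 at 157, 117 and 82.8 FPKM with stretch and 276, 197 and 208 FPKM without it. Stretched libraries were below unstretched ones within each siRNA, with no overlap, and the stretched Wnt5a siRNA libraries were the lowest of all. Tgfb3 fell with stretch to 35.4% of the unstretched mean with Wnt5a siRNA (log2 change −1.46 ± 0.21, adjusted p = 0.0012) and to 52.4% with control siRNA (−0.96 ± 0.21, adjusted p = 0.0024). These changes did not pass the test of their difference (−0.50 ± 0.30, interval −1.15 to 0.16, adjusted p = 0.247), although without library 3 of the stretched control the difference was −0.73 and passed (adjusted p = 0.042).

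Tgfb1, the isoform best known from platelets, immune cells and fibrotic tissue, had the narrowest range of the isoforms. It was at 69.5, 66.3 and 59.7 FPKM in the stretched Wnt5a siRNA libraries and 56.8, 57.7 and 52.3 FPKM in the unstretched Wnt5a siRNA libraries. Control libraries had Tgfb1 at 62.7, 53.9 and 73.1 FPKM with stretch and 48.1, 39.4 and 36.2 FPKM without it. The unstretched control libraries were below all the others. Tgfb1 rose with stretch in control siRNA cells by 0.60 ± 0.12 (1.53-fold, adjusted p = 9.6e-04, and 0.38 with TPM scaling), and its change with Wnt5a siRNA was 0.22 ± 0.12 (adjusted p = 0.222). The difference of these changes, −0.38 ± 0.17, did not pass (adjusted p = 0.115), and passed without library 1 of the unstretched control or library 2 of the stretched control (−0.49 and adjusted p = 0.041 in each).

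The mix of the isoforms differed between stretched and unstretched libraries. Tgfb3 made up 30.4% ± 3.64 of the summed FPKM of Tgfb1, Tgfb2 and Tgfb3 in the stretched Wnt5a siRNA, 55.9% ± 2.83 in the unstretched Wnt5a siRNA, 30.5% ± 4.27 in the stretched control and 66.8% ± 1.15 in the unstretched control libraries (SD, n = 3 each). Tgfb2 made up 39.1% ± 6.22 in the stretched Wnt5a siRNA, 26.7% ± 1.43 in the unstretched Wnt5a siRNA, 52.4% ± 1.68 in the stretched control and 21.0% ± 0.461 in the unstretched control libraries. Tgfb2 was the largest share in every stretched control library (51.8%, 54.3% and 51.1%) and Tgfb3 in every unstretched library of either siRNA. In the stretched Wnt5a siRNA libraries Tgfb1 made up 31.7%, 27.4% and 32.2%, a larger share than in any library of the other groups, where it was at most 22.9%. The summed FPKM of the 3 isoforms was 216 ± 28.6 in the stretched Wnt5a siRNA, 326 ± 67.2 in the unstretched Wnt5a siRNA, 383 ± 68.5 in the stretched control and 339 ± 59.6 in the unstretched control libraries (SD, n = 3 each). These shares and sums are a description and were not tested.

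**Figure D2:**
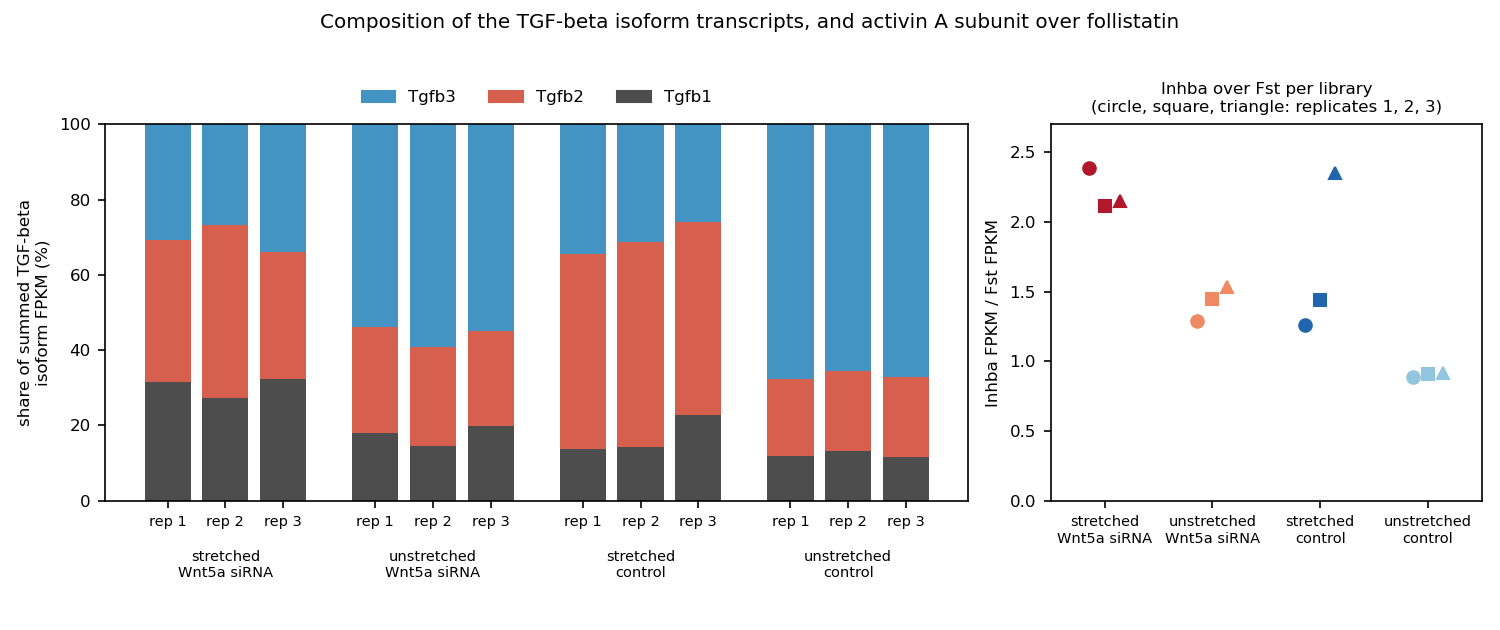
Left, share of each isoform in the summed FPKM of Tgfb1, Tgfb2 and Tgfb3 (%) in each library; right, FPKM of Inhba divided by FPKM of Fst in each library, with one marker per replicate. Tgfb3 holds the largest share in all unstretched libraries and Tgfb2 in all stretched control libraries, and the ratio of Inhba to Fst is lowest, at 0.885 to 0.913, in the unstretched control libraries.

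Inhba and Fst, an activin subunit and the protein that binds activin, had different patterns. Inhba was at 49.96, 51.1 and 41.9 FPKM in the stretched Wnt5a siRNA libraries and 40.7, 49.2 and 37.9 FPKM in the unstretched Wnt5a siRNA libraries. Control libraries had Inhba at 84.5, 82.5 and 81.4 FPKM with stretch and 41.6, 30.5 and 29.3 FPKM without it. The stretched control libraries were tight and above all others, and the other 3 groups formed an overlapping series. Inhba rose with stretch in control siRNA cells by 1.29 ± 0.13 (2.45-fold, interval 1.01 to 1.57, adjusted p = 8.7e-06), and changed by 0.16 ± 0.13 (interval −0.12 to 0.44, adjusted p = 0.431) with Wnt5a siRNA.

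Fst was at 20.9, 24.2 and 19.5 FPKM in the stretched Wnt5a siRNA libraries and 31.5, 34.0 and 24.7 FPKM in the unstretched Wnt5a siRNA libraries. Control libraries had Fst at 66.9, 57.3 and 34.6 FPKM with stretch and 47.0, 33.5 and 32.1 FPKM without it. The stretched Wnt5a siRNA libraries were below all the others, and library 3 of the stretched control fell among the unstretched ones. Its changes with stretch, −0.46 ± 0.21 with Wnt5a siRNA (interval −0.92 to 0.01, adjusted p = 0.171) and 0.46 ± 0.21 with control siRNA (interval −0.01 to 0.92, adjusted p = 0.089), pointed in opposite directions, and neither passed. With control siRNA the change passed as a rise without library 3 of the stretched control (0.73, adjusted p = 0.0026) or library 1 of the unstretched control (0.62, adjusted p = 0.037). With Wnt5a siRNA it passed as a fall without library 3 of the stretched control (−0.46, adjusted p = 0.041) or with only the libraries compared in the fit (−0.46, adjusted p = 0.027). Inhba stood at 2.39, 2.12 and 2.15 times Fst in the stretched Wnt5a siRNA libraries, 1.29, 1.45 and 1.53 times in the unstretched Wnt5a siRNA libraries, 1.26, 1.44 and 2.35 times in the stretched control libraries and 0.885, 0.911 and 0.913 times in the unstretched control libraries.

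Both growth differentiation factor genes rose with stretch in control siRNA cells. Gdf6, which in other vertebrates is known for joint and eye development, had the largest log2 change of the 9 genes there and the lowest level in the unstretched groups. It was at 7.21, 6.90 and 8.70 FPKM in the stretched Wnt5a siRNA libraries and 4.77, 6.40 and 4.46 FPKM in the unstretched Wnt5a siRNA libraries. Control libraries had Gdf6 at 15.8, 13.0 and 12.9 FPKM with stretch and 4.02, 3.29 and 2.07 FPKM without it. No neighbouring groups overlapped in this order of levels, from the stretched control at the top through the stretched and unstretched Wnt5a siRNA to the unstretched control. With control siRNA Gdf6 rose by 1.87 ± 0.17 (4.43-fold, adjusted p = 5.7e-06). With Wnt5a siRNA its change was 0.48 ± 0.17 (1.46-fold, interval 0.10 to 0.86), which did not pass (adjusted p = 0.084) except with only the libraries compared in the fit (adjusted p = 0.035) or without library 3 of the unstretched control (adjusted p = 0.041).

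Gdf15, whose product acts on appetite through a receptor of the hindbrain, Gfral, was at 19.8, 21.9 and 19.2 FPKM in the stretched Wnt5a siRNA libraries and 11.5, 15.1 and 13.4 FPKM in the unstretched Wnt5a siRNA libraries. Control libraries had Gdf15 at 26.4, 32.3 and 15.8 FPKM with stretch and 8.97, 9.46 and 14.2 FPKM without it. Stretched libraries were above unstretched ones within each siRNA. The rise with control siRNA was 1.09 ± 0.22 (2.29-fold, adjusted p = 0.0011). The change with Wnt5a siRNA, 0.58 ± 0.22 (1.52-fold, adjusted p = 0.093), passed with only the libraries compared in the fit (adjusted p = 0.0050) or without library 3 of the stretched control (adjusted p = 0.015). The changes did not pass the test of their difference (−0.52 ± 0.31, adjusted p = 0.242), but did without library 3 of the stretched control (−0.80, adjusted p = 0.017). Gfral was listed at 0 in all 12 libraries.

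Bmp2 and Bmp4, close relatives that signal through the same receptors, were at low levels and spread widely. Bmp4 was at 14.7, 11.4 and 11.6 FPKM in the stretched Wnt5a siRNA libraries and 8.197, 13.9 and 9.46 FPKM in the unstretched Wnt5a siRNA libraries. Control libraries had Bmp4 at 25.3, 20.6 and 14.2 FPKM with stretch and 11.9, 11.8 and 5.83 FPKM without it. It was higher in every stretched control library than in the unstretched control libraries, and the Wnt5a siRNA groups overlapped. Bmp4 rose with stretch in control siRNA cells by 0.98 ± 0.26 (2.03-fold, adjusted p = 0.0073), and its change with Wnt5a siRNA was 0.26 ± 0.26 (interval −0.31 to 0.83, adjusted p = 0.549).

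Bmp2 was at 6.02, 9.03 and 3.87 FPKM in the stretched Wnt5a siRNA libraries and 7.18, 6.49 and 4.001 FPKM in the unstretched Wnt5a siRNA libraries. Control libraries had Bmp2 at 19.8, 16.2 and 9.19 FPKM with stretch and 13.5, 7.48 and 8.88 FPKM without it. The control libraries overlapped, as did the Wnt5a siRNA libraries. Its changes with stretch were 0.05 ± 0.31 with Wnt5a siRNA (interval −0.62 to 0.73, adjusted p = 0.933) and 0.53 ± 0.31 with control siRNA (interval −0.15 to 1.20, adjusted p = 0.170). The second passed without library 3 of the stretched control (0.83, adjusted p = 0.032).

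**Figure D3:**
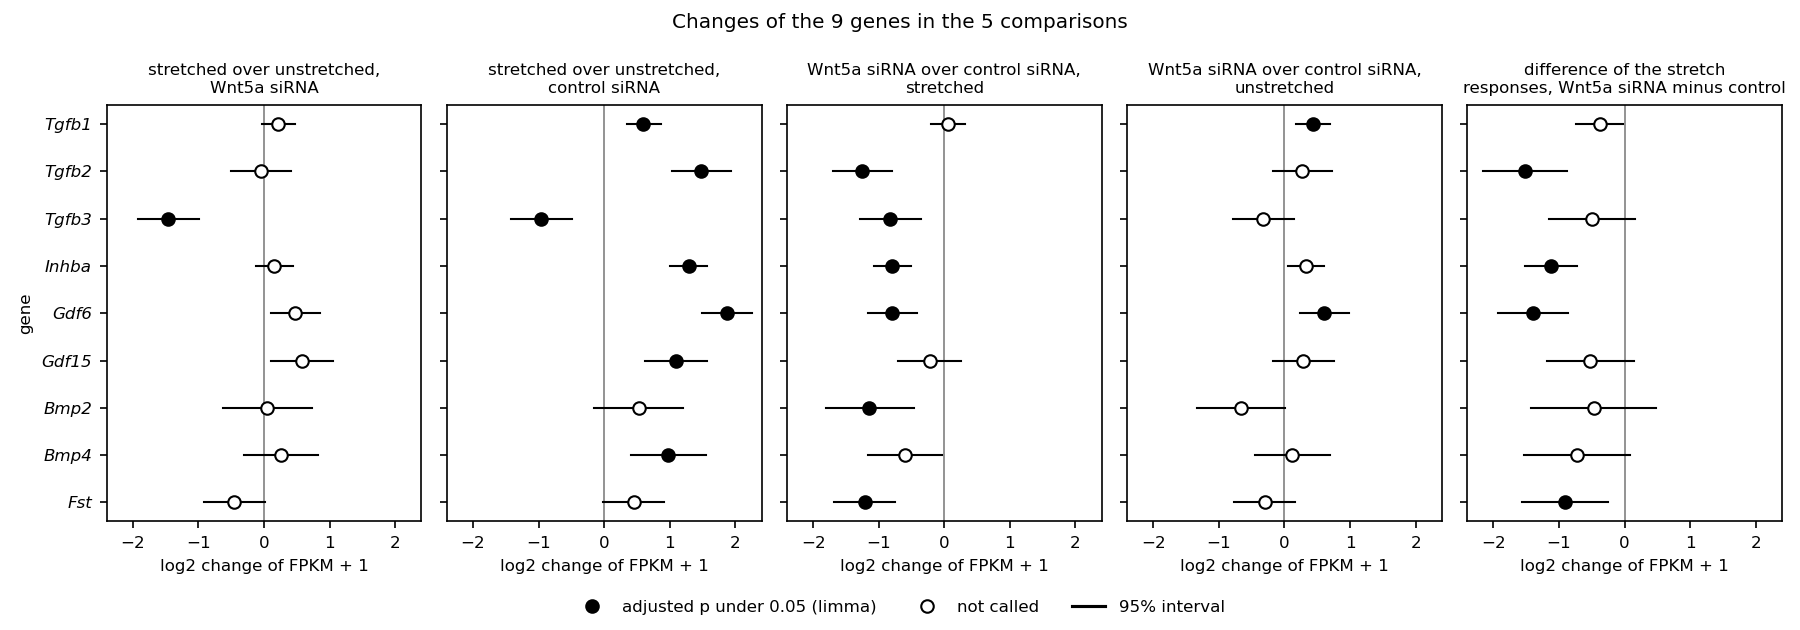
Log2 change of FPKM + 1 with its 95% interval for the 9 genes (rows) in the 5 comparisons (panels); filled points passed limma's test at an adjusted p under 0.05. For stretch with control siRNA 6 filled points lie to the right and that of Tgfb3 to the left. For Wnt5a siRNA over control siRNA in stretched cells 6 filled points lie to the left.

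Set against the stretched control, the stretched Wnt5a siRNA cells had lower levels of most of these transcripts. Of the 9 genes 6 fell (Tgfb2, Tgfb3, Inhba, Gdf6, Bmp2 and Fst) and none rose by limma's test, also at an unadjusted p under 0.05, where 27.3% of all tested genes passed, 14.2% as falls and 13.2% as rises. In these 6 genes no library of one group lay within the range of the other, against 37.6% of all tested genes, and the median log2 change was −0.79 over the 9 genes and 0.00 over all tested genes. Tgfb2 was at 42.5% of the stretched control mean (−1.25 ± 0.21, adjusted p = 0.0028), Fst at 40.6% (−1.21 ± 0.21, adjusted p = 0.0035), Inhba at 57.6% (−0.79 ± 0.13, adjusted p = 0.0026) and Gdf6 at 54.8% (−0.79 ± 0.17, adjusted p = 0.0083). Tgfb3 was at 54.6% (−0.82 ± 0.21, adjusted p = 0.017) and Bmp2 at 41.9% (−1.14 ± 0.31, adjusted p = 0.020). Tgfb1 (0.05 ± 0.12, interval −0.20 to 0.31), Gdf15 (−0.22 ± 0.22, interval −0.70 to 0.25) and Bmp4 (−0.60 ± 0.26, interval −1.17 to −0.03) did not pass, with adjusted p = 0.773, 0.462 and 0.104.

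Some of these calls did not hold in every setting. The fall of Tgfb3 did not pass without library 1 of the stretched control (−0.59, adjusted p = 0.076) or library 3 of the stretched Wnt5a siRNA (−0.79, adjusted p = 0.059), and that of Bmp2 without library 1 or 2 of the stretched control (adjusted p = 0.091 and 0.065), library 1 or 3 of the stretched Wnt5a siRNA (0.055 and 0.089), or with only the libraries compared in the fit (0.052). Without library 3 of the stretched control, Gdf15 (−0.51, adjusted p = 0.028) and Bmp4 (−0.82, adjusted p = 0.024) were also lower. The stretched control libraries are shared with the comparison of stretch under control siRNA, so the 2 sets of changes are not independent. TPM scaling kept the count at 6 lower, and turned the counts over all genes, 1386 higher and 1489 lower, into 2214 higher and 811 lower. The summed fibroblast markers given above were higher in the stretched Wnt5a siRNA than in the stretched control libraries, with the value of library 3 of the stretched control, 8315 FPKM, nearest to them. The summed smooth muscle and pericyte markers were lower, with library 3 of the stretched control again nearest. Acta2 and Tagln, which averaged 2642 and 1714 FPKM, made up much of these sums. Of these markers 5 of 10 tested fell, beside 27.3% of all tested genes called. The 2 that rose were Abcc9 (0.74 ± 0.14, adjusted p = 0.0049) and Kcnj8 (0.47 ± 0.15, adjusted p = 0.036). The summed cardiomyocyte markers were also lower, at 20015, 24757 and 17725 FPKM against 34256, 37211 and 25139.6 FPKM in the stretched control libraries. Of these 9 markers 2 fell, Actc1 (−0.96 ± 0.22, adjusted p = 0.010) and Myl3 (−0.57 ± 0.13, adjusted p = 0.011). Mb rose (1.78 ± 0.42, adjusted p = 0.011). The part of these marker shifts in the falls of the ligands was not tested.

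Without stretch, the count of these genes called between the siRNAs was close to the share of all tested genes. Of the 9 genes 2 were higher than in the unstretched control, Gdf6 (1.67-fold, 0.61 ± 0.17, adjusted p = 0.022) and Tgfb1 (1.35-fold, 0.43 ± 0.12, adjusted p = 0.017), and none was lower by limma's test, also at an unadjusted p under 0.05, where 28.5% of tested genes passed, 14.6% as rises and 13.9% as falls. The median was 0.27 over the 9 genes and 0.00 over all tested genes, and 3 of the 9 did not overlap between the groups, against 49.4% of tested genes. The third was Bmp2, whose values in the Wnt5a siRNA libraries lay below those of the control libraries (−0.66 ± 0.31, interval −1.34 to 0.01, adjusted p = 0.131). Inhba was at 126.0% of the control mean (0.33 ± 0.13, interval 0.05 to 0.61, adjusted p = 0.071), and passed without library 1 of the unstretched control (0.49, adjusted p = 0.011). The call of Tgfb1 was lost without library 2 or 3 of the unstretched control (adjusted p = 0.060 and 0.079) or library 1 or 2 of the unstretched Wnt5a siRNA (0.058 and 0.060), and that of Gdf6 without library 3 of the unstretched control (0.090) or library 2 of the unstretched Wnt5a siRNA (0.093).

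The test of whether stretch acted alike in both siRNA backgrounds, an interaction term over all 12 libraries, was passed by 4 of the 9 genes, each with a smaller or opposite change with Wnt5a siRNA, where 23.8% of tested genes passed, 12.1% with a negative and 11.7% with a positive difference. The difference, Wnt5a siRNA minus control siRNA, was −1.52 ± 0.30 for Tgfb2 (interval −2.16 to −0.88, adjusted p = 0.0049), −1.39 ± 0.25 for Gdf6 (−1.93 to −0.86, adjusted p = 0.0033), −1.12 ± 0.18 for Inhba (−1.52 to −0.73, adjusted p = 0.0025) and −0.91 ± 0.30 for Fst (−1.57 to −0.26, adjusted p = 0.046). The estimates of all 9 genes were negative, with a median of −0.72 over the 9 and 0.00 over all tested genes. Those of Tgfb2, Gdf6 and Inhba passed under every alternative tried, with adjusted p up to 0.016, 0.010 and 0.0089. That of Fst did not pass without a filter on low values (0.077), after quantile normalization (0.053) or with TPM scaling (0.055). It was also lost without library 2 or 3 of the unstretched control (0.101 and 0.108), 1 or 2 of the unstretched Wnt5a siRNA (0.094 and 0.105), 1 or 2 of the stretched control (0.104 and 0.082), or 1, 2 or 3 of the stretched Wnt5a siRNA (0.085, 0.052 and 0.104). TPM scaling turned the counts over all genes, 1226 positive and 1277 negative, into 1607 positive and 815 negative.

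Over the 12 libraries the 9 genes fell into patterns of unequal likeness, given here as Pearson correlations of log2(FPKM + 1) with no test, since the libraries form 4 groups that set most of the variation. Tgfb2 and Inhba (r = 0.94) and Inhba and Gdf6 (r = 0.94) were most alike, followed by Bmp2 and Fst (r = 0.90). Tgfb3 ran against Tgfb1 (r = −0.68), Gdf15 (r = −0.57) and Gdf6 (r = −0.51). Among all tested genes the one most like Tgfb2 was Lmcd1 (r = 0.987), a LIM domain protein. The closest to Inhba was Itgb1, the integrin beta subunit shared by most matrix receptors (r = 0.989), and the closest to Gdf6 was Prkci, an atypical protein kinase C (r = 0.978). Tgfb3 was most like Crim1, a membrane protein that binds BMPs (r = 0.986), and Tll1, a tolloid protease, was the third (r = 0.982). Fst was most like Shroom3, an actin-binding protein (r = 0.988), Tgfb1 most like the aminopeptidase Lap3 (r = 0.974), Gdf15 like the chaperone Hsp90ab1 (r = 0.953), Bmp2 like the kinase Chuk (r = 0.956) and Bmp4 like Fam46a (r = 0.938).

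Promoter sequences are shown for the pair that moved together, Tgfb2 and Inhba, for Tgfb3, and for Bmp4, which held the most motif matches. Tgfb3 fell with stretch in control siRNA cells, where Tgfb2 and Inhba rose. Of the 9 genes 6 had an entry in the RefSeq promoter table for the build GRCr8, 7 windows in all, since Gdf15 had 2. The data themselves were processed on rn6, so no position of the data is drawn from these windows. Each line gives 210 bases before the annotated start and the first 10 after it, 5′ to 3′ in the direction of the gene, with matches to the searched motifs in capitals.
Tgfb2, chr13:100792676-100792895, minus strand: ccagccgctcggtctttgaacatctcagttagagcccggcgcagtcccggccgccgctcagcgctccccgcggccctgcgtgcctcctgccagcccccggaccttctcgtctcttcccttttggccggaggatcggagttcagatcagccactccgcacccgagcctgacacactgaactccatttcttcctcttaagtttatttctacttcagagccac
Inhba, chr17:53804499-53804718, minus strand: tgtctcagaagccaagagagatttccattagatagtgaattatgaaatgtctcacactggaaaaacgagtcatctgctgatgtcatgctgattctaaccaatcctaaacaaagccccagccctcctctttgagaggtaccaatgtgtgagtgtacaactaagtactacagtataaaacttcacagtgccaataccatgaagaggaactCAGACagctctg
Tgfb3, chr6:111456937-111457156, minus strand: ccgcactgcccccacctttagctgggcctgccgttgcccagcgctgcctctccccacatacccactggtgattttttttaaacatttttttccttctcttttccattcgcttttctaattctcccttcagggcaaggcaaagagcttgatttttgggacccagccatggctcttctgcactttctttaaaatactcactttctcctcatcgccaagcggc
Bmp4, chr15:22101924-22102143, minus strand: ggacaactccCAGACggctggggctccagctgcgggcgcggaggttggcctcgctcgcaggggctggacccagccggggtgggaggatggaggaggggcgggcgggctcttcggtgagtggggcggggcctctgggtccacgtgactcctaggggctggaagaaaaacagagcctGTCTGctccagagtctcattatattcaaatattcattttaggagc
The motifs searched on both strands over the 300 bases of each table window were CAGAC (bound by Smads), GGCGCC (BMP-responsive Smads), TGANTCA (AP-1), TGACGTC (CREB and ATF factors), GATGCAA (ATF4 with C/EBP) and GGAATG (TEAD factors, the partners of YAP). CAGAC was in 3 of the 7 windows, once in that of Inhba from position −2, once, on the other strand, in that of one Gdf15 start from −217, and in that of Bmp4 from −200 and, on the other strand, from −35, where 50.1% of 33469 windows held it. GGAATG was in 1 of the 7, that of Bmp4, on the other strand from positions 11 and 24, outside the stretch printed, where 14.2% of windows held it. The other motifs matched in none of the 7, and in 11.0%, 7.33%, 3.22% and 2.56% of all windows in the order given above. The windows of Tgfb1, Tgfb2 and Tgfb3 held no match. A match describes letters only, and no match says nothing of the factor.

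The other ligands of the family were mostly absent or low. Of 22 listed 6 were tested, and the other 16 were at 1.38 FPKM or less in every library. With control siRNA stretch raised Gdf11, a close relative of myostatin (0.57 ± 0.10, adjusted p = 5.3e-04), and Inha, the inhibin alpha subunit (0.47 ± 0.14, adjusted p = 0.014), and lowered Bmp3, an inhibitory BMP (−0.74 ± 0.20, adjusted p = 0.0068). With Wnt5a siRNA stretch raised Inhbb, the beta B subunit of activins (0.70 ± 0.13, adjusted p = 0.0040), and lowered Bmp3 (−1.13 ± 0.20, adjusted p = 0.0030). With control siRNA 2 of the 6 thus rose and 1 fell, close to the 54.3% of all tested genes called there. With Wnt5a siRNA 1 rose and 1 fell, beside 16.0%. With TPM scaling 1 of the 6 rose with stretch in control siRNA cells, as without library 1 or 3 of the unstretched control.

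For the gene lists that follow, the shares of all tested genes called in either direction were 54.3% for stretch with control siRNA, 16.0% for stretch with Wnt5a siRNA, 27.3% for Wnt5a siRNA under stretch and 23.8% for the interaction. The lists share some genes, so their counts are not separate. Ltbp2 is in those of latent ligands and of TGF-beta targets, Smad7 in both target lists, and Smad9 among Smads and BMP targets. Of 13 tested receptor and co-receptor genes 3 rose and 5 fell with stretch in control siRNA cells (median 0.04), 2 rose and 2 fell with stretch in Wnt5a siRNA cells (median −0.01), and with Wnt5a siRNA under stretch 1 rose and 2 fell (median 0.01). The counts of 8, 4 and 3 of 13 stand beside 54.3%, 16.0% and 27.3% of all tested genes. With control siRNA the leading changes were falls of co-receptors, Rgma (−1.07 ± 0.12, adjusted p = 2.4e-05) and Hfe2 (−2.44 ± 0.30, adjusted p = 3.5e-05), which bind BMPs, and Tgfbr3, betaglycan, which binds TGF-beta2 (−1.15 ± 0.17, adjusted p = 1.2e-04). Under stretch Wnt5a siRNA went with higher Tgfbr2, the TGF-beta type II receptor (0.60 ± 0.12, adjusted p = 0.0060), and lower Bmpr2 (−0.51 ± 0.11, adjusted p = 0.0072) and Bmpr1a (−0.25 ± 0.08, adjusted p = 0.031), receptors of BMPs. With TPM scaling 1 receptor gene rose with stretch in control siRNA cells, and 5 did without library 1 of the unstretched control or library 3 of the stretched control. In Wnt5a siRNA cells none rose without library 1 of the unstretched or 2 of the stretched Wnt5a siRNA, none fell without library 3 of the unstretched or 1 of the stretched Wnt5a siRNA, and 1 fell with the replicate number as a block. TPM scaling left none higher and 4 lower there. The 2 falls with Wnt5a siRNA under stretch became 1 with quantile normalization, TPM scaling or only the libraries compared in the fit, and without library 1 or 2 of the stretched control or 1 or 3 of the stretched Wnt5a siRNA, and the 1 rise became 2 without library 3 of the stretched control.

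Of 12 tested Smads and their co-regulators, 5 rose and 1 fell with stretch in control siRNA cells (median 0.19), where 54.3% of all tested genes were called. The rises were led by Tgif1, a nuclear repressor of Smad2 and Smad3 (0.88 ± 0.08, adjusted p = 6.2e-06), and Smurf2, a ubiquitin ligase of the pathway (0.63 ± 0.09, adjusted p = 1.0e-04). With Wnt5a siRNA none passed limma's test under stretch (median 0.09), and 3 did at an unadjusted p under 0.05 (Tgif1, Usp15 and Smurf1). Under stretch Wnt5a siRNA went with lower Smurf2 (−0.45 ± 0.09, adjusted p = 0.0055), Tgif1 (−0.40 ± 0.08, adjusted p = 0.0070) and Smad3 (−0.31 ± 0.09, adjusted p = 0.027), with a median of −0.20 over the 12 and no gene higher, where 27.3% of all tested genes were called. Without library 3 of the stretched control 5 were lower and 1 was higher there, and 2 rose and 1 fell with stretch in Wnt5a siRNA cells. The 1 fall with stretch in control siRNA cells, Zfyve9, was lost without library 2 or 3 of the unstretched control or 1 or 2 of the stretched control, without the filter, after quantile normalization and with only the libraries compared in the fit, and with TPM scaling 2 fell.

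Several secreted proteins that bind the ligands rose with stretch. Of 11 tested antagonists other than Fst, 7 rose and 1 fell with stretch in control siRNA cells (median 0.42), and 4 rose and 2 fell in Wnt5a siRNA cells (median 0.37), beside 54.3% and 16.0% of all tested genes called. With Wnt5a siRNA under stretch 4 rose and 3 fell (median −0.08, 27.3% of all tested genes called), led by a rise of Nbl1, a BMP antagonist (0.58 ± 0.09, adjusted p = 0.0019), the fall of Fstl3 and a rise of Chrd, chordin (0.96 ± 0.20, adjusted p = 0.0069). Fstl3, a follistatin-like protein that also binds activins, was at 29.3, 35.2 and 25.1 FPKM in the stretched Wnt5a siRNA libraries and 35.0, 40.9 and 27.1 FPKM in the unstretched Wnt5a siRNA libraries. Control libraries had Fstl3 at 102, 80.4 and 45.7 FPKM with stretch and 26.9, 23.3 and 20.5 FPKM without it. It rose with stretch in control siRNA cells (1.58 ± 0.24, adjusted p = 1.6e-04), was lower with Wnt5a siRNA under stretch (−1.26 ± 0.24, adjusted p = 0.0048), and passed the test of the difference (−1.77 ± 0.34, adjusted p = 0.0048). Fstl1 rose with stretch in control siRNA cells (0.64 ± 0.10, adjusted p = 2.0e-04) and Crim1 fell (−0.72 ± 0.13, adjusted p = 4.8e-04). Decorin, Dcn, a matrix proteoglycan that binds TGF-beta and is also one of the fibroblast markers, led the rises with stretch in Wnt5a siRNA cells (1.96 ± 0.14, adjusted p = 2.2e-05), and its change differed from that with control siRNA by 1.34 ± 0.19 (adjusted p = 0.0017). With TPM scaling 4 antagonists rose with stretch in control siRNA cells. In Wnt5a siRNA cells 2 rose without library 1 of the unstretched or library 1 of the stretched Wnt5a siRNA. The 2 falls there became 1 without the filter, library 1 or 2 of the unstretched, or library 1, 2 or 3 of the stretched Wnt5a siRNA. The 1 fall with control siRNA became 2 without the filter, after quantile normalization, with TPM scaling or with the replicate number as a block. It also became 2 without library 2 of the unstretched control, 3 of the stretched control or 3 of the unstretched Wnt5a siRNA. With Wnt5a siRNA under stretch 2 rose without library 1 of the stretched control or 3 of the stretched Wnt5a siRNA, and 1 fell without either of these or library 1 of the stretched Wnt5a siRNA.

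Of 20 tested genes for the processing, storage and activation of latent ligands, 9 rose and 2 fell with stretch in control siRNA cells (median 0.33), and 7 rose and 2 fell in Wnt5a siRNA cells (median 0.20). The first count, 11 of 20, is close to the 54.3% of all tested genes called, and the second, 9 of 20, stands beside 16.0%. The 2 falls with control siRNA became 1 without library 1 or 2 of the unstretched control, 1 or 2 of the stretched control, 1 of the unstretched Wnt5a siRNA or 2 of the stretched Wnt5a siRNA, and those with Wnt5a siRNA became 1 without library 2 of either Wnt5a siRNA group. With control siRNA the smallest adjusted p were those of Plat, tissue plasminogen activator (1.15 ± 0.07, adjusted p = 7.9e-07), Ltbp2, a latent TGF-beta binding protein of the matrix (1.0 ± 0.13, adjusted p = 3.8e-05), and Thbs1, thrombospondin 1, which can activate latent TGF-beta (1.08 ± 0.16, adjusted p = 1.2e-04). Thbs1 was at 545, 571 and 447 FPKM in the stretched Wnt5a siRNA libraries and 596, 720.3 and 519 FPKM in the unstretched Wnt5a siRNA libraries. Control libraries had Thbs1 at 1269, 1151 and 963 FPKM with stretch and 653, 505 and 447 FPKM without it. The stretched control libraries were above all the others, and the difference of the stretch responses was −1.31 ± 0.22 (adjusted p = 0.0030). With Wnt5a siRNA the gelatinase Mmp2 led the rises under stretch (1.0 ± 0.09, adjusted p = 7.8e-05) and the protease Tll1 fell (−1.53 ± 0.23, adjusted p = 0.0012).

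Known target genes were read beside the ligands. Of 20 tested targets of TGF-beta and activin signalling, 12 rose and 1 fell with stretch in control siRNA cells (median 0.66), 4 rose and 3 fell in Wnt5a siRNA cells (median 0.17), and under stretch 2 rose and 14 fell with Wnt5a siRNA against control siRNA (median −0.64, against 0.00 over all tested genes). These counts stand beside 54.3%, 16.0% and 27.3% of all tested genes called. The test of the difference was passed by 12 with a smaller or opposite change with Wnt5a siRNA and by 1, Angptl4, with the reverse, beside 23.8% of all tested genes. Cdkn2b, a cell cycle inhibitor, rose with stretch in both backgrounds, by 0.93 ± 0.14 with Wnt5a siRNA (adjusted p = 0.0012) and by 1.95 ± 0.14 with control siRNA (adjusted p = 1.5e-06). Under stretch, Bhlhe40 (−0.78 ± 0.11, adjusted p = 0.0016) and Tsc22d1 (−0.96 ± 0.15, adjusted p = 0.0021) were lower with Wnt5a siRNA than with control siRNA. The 2 targets that were higher there, the collagens Col3a1 (0.77 ± 0.17, adjusted p = 0.0076) and Col1a1 (0.58 ± 0.14, adjusted p = 0.013), are also fibroblast markers, of which 6 of 10 tested rose in the same comparison. Tagln (−0.63 ± 0.16, adjusted p = 0.015) and Acta2 (−0.75 ± 0.24, adjusted p = 0.034), among the 14 falls, are also smooth muscle markers, of which 5 of 10 tested fell. With the replicate number as a block 5 targets fell with stretch in Wnt5a siRNA cells, 1 fell without library 1 or 2 of the unstretched or 3 of the stretched Wnt5a siRNA, and 2 rose without library 1 or 3 of the unstretched or 1 or 2 of the stretched Wnt5a siRNA. With Wnt5a siRNA under stretch, the 14 falls were 9 with only the libraries compared in the fit and without library 1 of the stretched control or library 3 of the stretched Wnt5a siRNA. The 2 rises there became 0 with only the libraries compared in the fit and 1 without library 1 of the stretched control.

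Of 15 tested targets of BMP signalling, 8 rose and 3 fell with stretch in control siRNA cells (median 0.49), and 5 rose in Wnt5a siRNA cells (median 0.47), beside 54.3% and 16.0% of all tested genes called. The 5 became 8 without library 3 of the stretched control or with only the libraries compared in the fit. With Wnt5a siRNA under stretch 3 rose and 3 fell (median 0.03), beside 27.3% of all tested genes called. The test of the difference was passed by 3 with a positive and 4 with a negative difference (median 0.11), beside 23.8%. With single libraries left out the 3 rises ranged from 1 to 6, and the passed differences fell to as few as 1 positive and 2 negative. Id1, an inhibitor of differentiation and a direct target of BMP Smads, rose with stretch by 1.01 ± 0.21 with Wnt5a siRNA (adjusted p = 0.0071) and by 2.24 ± 0.21 with control siRNA (adjusted p = 5.9e-06), while Id2 rose by 1.02 ± 0.11 with Wnt5a siRNA (adjusted p = 2.6e-04) and by 0.49 ± 0.11 with control siRNA (adjusted p = 0.0028). The differences of these responses were −1.23 ± 0.30 for Id1 (adjusted p = 0.012) and 0.53 ± 0.16 for Id2 (adjusted p = 0.031).

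**Figure D4:**
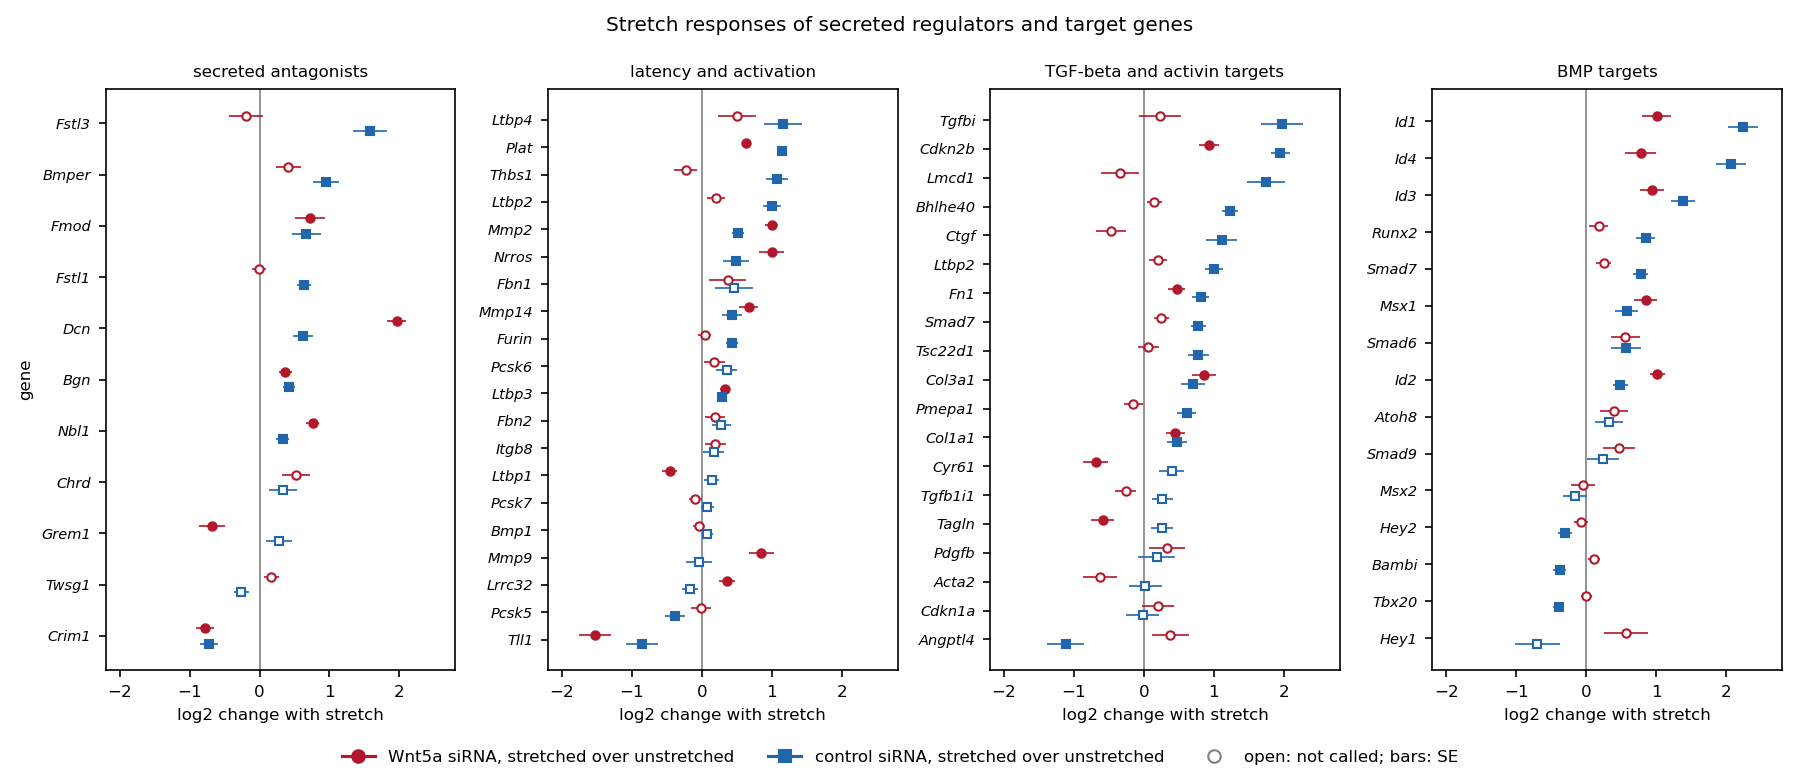
Log2 change of FPKM + 1 with stretch (± SE) for tested genes of 4 lists, as circles for Wnt5a siRNA and squares for control siRNA cells, filled where limma's adjusted p was under 0.05. Fstl3, Thbs1 and Bhlhe40 lie further right with control siRNA, whereas Dcn, Mmp2 and Id2 lie further right with Wnt5a siRNA.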

How the data were processed

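RNA was sequenced in 12 libraries. A miRNeasy kit gave the RNA and a stranded TruSeq mRNA kit the libraries, per the labels' protocols. Per the submitters' processing notes, TopHat2 2.1.1, Bowtie2 and Cuffdiff 2.2.1 were used with the rat build rn6. The values are the FPKM deposited by the authors, and the sources used here do not name the annotation, the scaling between libraries or the strand setting. No counts come with FPKM, so the depth is unknown. What 1 fragment was worth, read from ratios of 1523 low genes, spanned a factor of 1.21 over the libraries, and the libraries' spread gives the precision.

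Genes that reached 1 FPKM in 3 or more libraries were tested on log2(FPKM + 1) with limma 3.58.1 in R 4.3.3 (lmFit on 4 group means, contrasts.fit, eBayes with a trend), with 2-sided p-values adjusted over all tested genes. The fit was checked on simulated data. The 9 genes, the gene lists, the motifs and the tests were chosen with earlier results of these data known. All 9 genes are named, and from each list the called genes with the smallest adjusted p come first. Of the TGF-beta and activin targets, 1 is in the counts but is not reported here. Fstl3 and Thbs1 were given in every library, and the cell type markers, Zfyve9, Usp15, Smurf1, Dcn, Col1a1, Col3a1, Id2 and Angptl4 beside them, after values were seen.

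Each result was recomputed with a pseudocount of 0.1, no filter, quantile normalization, TPM scaling, the replicate number as a block, only the libraries compared, and leaving out each library. Deviations from group means of same-numbered stretched and unstretched Wnt5a siRNA libraries correlated at 0.143 to 0.242 over the 3 pairs, which pairs them by the limit of 0.1. In the other comparisons at least 1 pair was under it.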

Additional observations from a re-analysis of the deposited data

Results flagged for a closer look

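For 4 of the 9 genes the change with stretch differed between Wnt5a siRNA and control siRNA cells by limma's interaction test. The log2 difference, Wnt5a siRNA minus control siRNA, was −1.52 for Tgfb2, −1.39 for Gdf6, −1.12 for Inhba and −0.91 for Fst. In each of these genes the estimate was negative in the fit of all 12 libraries and without any 1 of them. The difference for Fst fell short of the threshold in the settings listed with it above. Groups of 3 libraries were not searched for outlying values gene by gene. Library 3 of the stretched control stood apart on the second principal component of all tested genes (22.9% of the variance), at −3.99 against 25.15 and 24.76 for the other stretched control libraries, and without it the differences of Tgfb3 and Gdf15 passed as well.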

How the results depend on the processing

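Of 801 values of the 9 genes under the alternatives, 748 kept their direction and their side of the threshold, 25 lost a call, 20 gained one and 8 turned sign, none of the 8 with a call. The turns were of Tgfb2 with stretch in Wnt5a siRNA cells (−0.25 to 0.16 over the libraries left out), Bmp2 in the same comparison (−0.06 with TPM scaling, −0.21 to 0.32 over libraries left out), Tgfb1 with Wnt5a siRNA under stretch (−0.06 to 0.16) and Bmp4 with Wnt5a siRNA without stretch (−0.19 to 0.27). The cause was not tested. With only the libraries compared in the fit, Gdf6, Gdf15 and Fst (adjusted p = 0.035, 0.0050 and 0.027) were called beside Tgfb3 for stretch with Wnt5a siRNA. In that setting 1208 of all genes were called for Wnt5a siRNA under stretch, against 2875. With the replicate number as a block, Inhba and Bmp2 (adjusted p = 0.044 and 0.038) were called beside Tgfb1 and Gdf6 for Wnt5a siRNA without stretch. Fst was called there for stretch with control siRNA (adjusted p = 0.022). Where the numbers pair the libraries, in stretch with Wnt5a siRNA, the block changed no call of the 9 genes. Over the libraries left out, the genes called of the 9 were 7 to 9 for stretch with control siRNA, 1 to 3 for stretch with Wnt5a siRNA, 4 to 8 for Wnt5a siRNA under stretch, 0 to 3 for Wnt5a siRNA without stretch and 3 to 6 for the interaction. Those of all genes were 4830 to 6035, 849 to 2625, 1102 to 4668, 1774 to 3935 and 1574 to 3638, against 5711, 1686, 2875, 3002 and 2503. TPM scaling shifted the median of all tested genes to −0.20 for stretch with control siRNA, −0.12 for stretch with Wnt5a siRNA, 0.11 for Wnt5a siRNA under stretch and 0.10 for the interaction. With 3 libraries a group, the intervals of Bmp2 and Bmp4 were wide where they did not pass, at most from −1.43 to 0.48 and from −1.53 to 0.09 log2 units, in the interaction.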
